A study of Homo sapiens with 12 samples.

Results

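The quantity described here is the genotype by tunicamycin interaction: for each gene, the log2 change from DMSO to tunicamycin (Tm) in QRICH1 KO cells less the same change in WT cells. It was taken from all 12 libraries of the series, and 11323 of the 20015 genes in the table had enough counts to be tested. All groups were HT29 cells, a human colorectal adenocarcinoma line, that express the Cas9 nuclease. WT cells had been transduced with a lentivirus carrying a non-targeting guide, and QRICH1 KO cells with one carrying a guide against QRICH1. Each genotype was given DMSO or Tm at 0.3 µg/ml for 14 h, with 3 libraries in each of the 4 groups, which the series calls biological replicates. The labels do not say whether the QRICH1 KO cells were a clone or a mixed population, or whether guides differed between libraries.

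Tunicamycin blocks DPAGT1, the enzyme that starts the lipid-linked precursor of N-glycans, so that newly made glycoproteins misfold in the endoplasmic reticulum (ER). The sensors IRE1 (gene ERN1), PERK (gene EIF2AK3) and ATF6 then start the unfolded protein response. IRE1 and ATF6 act through the transcription factors XBP1 and cleaved ATF6 on genes of ER chaperones, ER-associated degradation and secretory transport, and PERK slows translation while favouring the translation of ATF4, which acts on genes of amino acid supply and, with CHOP (gene DDIT3), on genes linked to cell death. The QRICH1 protein is rich in glutamine and carries a CARD fold, and the title of the series places it in the transcriptional control of proteostasis during ER stress.

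Each library held between 6856736 and 17861844 counts. QRICH1 mRNA itself was at 22.7, 31.1 and 35.0 CPM (counts scaled to a common library size) in the WT libraries without Tm and 30.8, 31.0 and 25.7 with it, and at 23.3, 24.1 and 24.8 CPM in the QRICH1 KO libraries without Tm and 26.8, 22.4 and 19.2 with it, so the transcript level of the targeted gene does not separate the genotypes. Cas9 cuts need not lower a transcript, and no protein level was among these data. Its interaction was -0.05 (SE 0.229, edgeR adjusted p = 0.989). Library 3 of QRICH1 KO DMSO had counts for 15340 genes and library 3 of QRICH1 KO Tm for 14813, against 13124 to 14094 in the other 10 libraries. Epithelial keratins were abundant, with KRT8 at 34074 to 59636 CPM. Of 24 markers of non-epithelial cells, 23 were at or under 3.72 CPM in every library, among them the immune marker PTPRC and the collagen gene COL1A1 at under 1 CPM. The exception was LYZ, lysozyme, which secretory epithelial cells also make, at 1605 to 2626 CPM. It sets the summed level of the list, 2506 to 2561 CPM in WT DMSO, 1609 to 1852 in WT Tm, 2274 to 2633 in QRICH1 KO DMSO and 1996 to 2226 in QRICH1 KO Tm. Libraries are compared as relative levels, so fewer cells of a kind and less RNA per cell cannot be told apart.

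The genes that responded to Tm in QRICH1 KO cells were largely those that responded in WT cells, with smaller fitted responses. Over all 11323 genes tested, the QRICH1 KO response followed the WT response with a slope of 0.78 on the log2 scale, fitted through 0 by total least squares. This slope is called the even scaling below. It lay between 0.697 and 0.734 without a single WT library and between 0.783 and 0.874 without a single QRICH1 KO library. Without both QRICH1 KO libraries 3 it was 0.93, where the 340 raised genes described below had a median ratio of 0.785. Why the slope moved with the genotype that had fewer libraries was not tested. ER chaperones, glycosylation and transport genes and ATF4 targets, which Tm raised, had median response ratios of 0.75 to 0.81, and replication genes, which Tm lowered, of 0.69. With the filter on low counts no gene was called as losing, keeping or gaining response size beyond the even scaling, and the genes described as lying below or above it are a ranking of values that did not pass the test.

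The plain interaction was tested first. The quasi-likelihood test of edgeR called 0 of 11323 genes (0%) at an adjusted p under 0.05, with a smallest adjusted p of 0.0721, while 774 genes (6.84%) had an unadjusted p under 0.05. limma voom also called 0, with 797 under 0.05 unadjusted. DESeq2 called 35 genes (0.309%), and edgeR without a filter on low counts called 44, of which 23 were among DESeq2's 35. All 44 had also passed the filter and were among the 11323 genes of the edgeR test that called 0. Of the 35, 28 had a lower and 7 a higher log2 response in QRICH1 KO, and for 34 the difference ran against the sign of the fitted shared response of both genotypes, which was called for 31 of them. Of the 44, 38 ran against it. The 12 genes under an adjusted p of 0.1 by edgeR were all of this kind.

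Among the genes with the lowest p for a smaller response, CRELD2, an ER chaperone for secreted proteins, stood at 24.4, 22.4 and 28.1 CPM in WT DMSO and at 361, 439 and 377 CPM in WT Tm. In QRICH1 KO it stood at 35.9, 37.8 and 30.5 CPM under DMSO and at 274, 260 and 204 CPM under Tm. The QRICH1 KO libraries were thus above all WT libraries under DMSO and below all of them under Tm. Its response was 15.7-fold in WT and 7.08-fold in QRICH1 KO, an interaction of -1.15 on the log2 scale (SE 0.191, edgeR adjusted p = 0.0721).

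HSP90B1, the ER paralog of HSP90, differed under Tm alone. It was at 702, 630 and 715 CPM in WT DMSO and 725, 709 and 679 in QRICH1 KO DMSO, which overlap, and at 8710, 8763 and 8677 CPM in WT Tm against 4792, 5350 and 5166 in QRICH1 KO Tm. The interaction was -0.82 (SE 0.146, edgeR adjusted p = 0.0721). SESN2, a stress-induced inhibitor of mTORC1, showed both sides: 7.21, 8.71 and 7.89 CPM in WT DMSO against 13.5, 11.2 and 15 in QRICH1 KO DMSO, and 83.8, 105 and 89.5 CPM in WT Tm against 71.8, 76.9 and 68.9 in QRICH1 KO Tm. Its interaction was -1.09 (SE 0.192, same adjusted p). SELENOS, a selenoprotein of ER-associated degradation, had an interaction of -0.82 with a response ratio of 0.72. DESeq2 called the interactions of CRELD2, HSP90B1, SESN2 and SELENOS, with adjusted p of 0.00023, 1.09e-06, 0.000887 and 0.000731. It also called those of HSPA5 and SELENOK, described below (adjusted p = 0.000887 and 0.00023). The edgeR test with the filter on low counts called none of these.

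The 7 positive interactions called by DESeq2 were of different kinds. GLUL, MCM4 and SOSTDC1 were lowered by Tm in both genotypes. For AFAP1L2, PANK3, TUBA1A and SEC31B, named after their values were seen, the fitted response was negative in WT and positive in QRICH1 KO. AFAP1L2, an adaptor of SRC signalling, went from -1.5 in WT to 0.17 in QRICH1 KO at 8.19 CPM on average, PANK3, a kinase of coenzyme A synthesis, from -0.63 to 0.28, the tubulin gene TUBA1A from -0.59 to 0.38, and SEC31B from -2.86 to 0.99 at 0.825 CPM on average. Their edgeR adjusted p lay between 0.0986 and 0.206. TUBA1A has close paralogs, and reads could be split between them.

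GLUL, glutamine synthetase, was at 118, 122 and 113 CPM in WT DMSO and 116, 121 and 115 in QRICH1 KO DMSO. Under Tm it was at 42.5, 44.7 and 51.1 CPM in WT and at 77.9, 77.4 and 65.8 in QRICH1 KO, with no overlap. It stood 2.56-fold lower with Tm in WT and 1.59-fold lower in QRICH1 KO, an interaction of 0.69 (SE 0.153, edgeR adjusted p = 0.192). The replicative helicase subunit MCM4 had an interaction of 0.61, the focal adhesion gene TNS4 0.64, the tight junction gene CLDN2 0.88 and SOSTDC1, a secreted antagonist of BMP and WNT signalling, 0.96, all with responses that were negative in both genotypes and smaller in QRICH1 KO.

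The even scaling was then taken as the reference. Each gene's residual is the QRICH1 KO response less 0.78 times the WT response. The shared response is the weighted sum of both responses whose error is uncorrelated with that of the residual, and it was called for 1907 genes higher (16.8%) and 1869 lower (16.5%) with Tm. The residual was called for 0 of 11323 genes (0%) by edgeR, with a smallest adjusted p of 0.753, and 475 genes (4.2%) had an unadjusted p under 0.05. DESeq2 and limma voom called 0 as well, with 469 and 517 under 0.05 unadjusted. Without a filter on low counts edgeR called 12, all of which had also passed the filter. Among the 3776 genes with a called shared response, the share under 0.05 unadjusted was 12.6% for the plain interaction and 4.74% for the residual. The plain interactions behind the 12.6%, 475 genes, were smaller QRICH1 KO responses in 456 genes and larger ones in 19. The WT response has the larger weight in the shared response. Choosing and signing genes by it therefore leans towards smaller QRICH1 KO responses, here and in the other counts by its sign. How far this lean goes was not computed.

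The precision of the residual limits this. For genes of at least 10 CPM on average whose shared response was at least 1 on the log2 scale, its median SE was 0.18, with 90% of genes between 0.128 and 0.317. Residuals several times their SE were not called after adjustment over all genes, HERPUD1 with 0.61 (SE 0.139) among them, and absence of calls does not show that every gene follows the line.

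**Figure D1:**
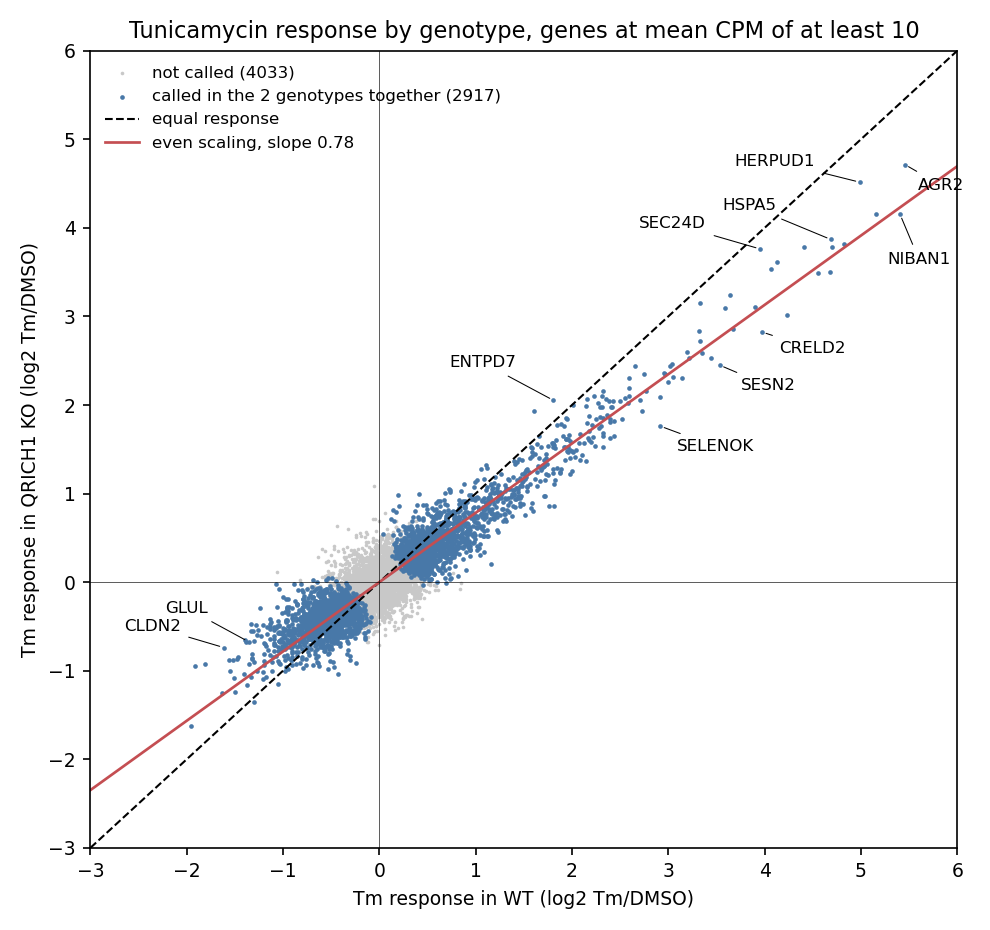
Tm response in QRICH1 KO (vertical axis) against WT (horizontal axis), both as log2 Tm over DMSO, for the 6950 tested genes of at least 10 CPM on average. Each point is a gene, blue where its shared response was called (2917) and grey where it was not (4033). The dashed line marks equal responses and the red line the even scaling of 0.78, around which the strongly raised genes from SELENOK (below) to HERPUD1 (above) are spread.

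Of the 340 raised genes of at least 10 CPM and a shared response of at least 1, 326 had the smaller response in QRICH1 KO. Their median ratio of the QRICH1 KO to the WT response was 0.78, with 90% of genes between 0.592 and 0.987, and 176 lay below and 164 above the line. Of the 68 lowered genes chosen in the same way, 63 had the smaller response in QRICH1 KO, the median ratio was 0.69, and 45 lay below and 23 above the line. The difference between raised and lowered genes was not tested. With each of the 12 libraries left out in turn, the median ratio of these same genes ran from 0.768 to 0.790 for raised genes and from 0.666 to 0.727 for lowered genes, and without both QRICH1 KO libraries 3 it was 0.785 and 0.712. With the genes chosen anew in that setting and at any CPM, the order turned, to 0.813 for raised and 0.841 for lowered genes.

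The size of a response made little difference among raised genes. The median ratio was 0.77 for the 586 raised genes of at least 10 CPM with a shared response under 0.5, 0.781 for the 580 between 0.5 and 1, 0.764 for the 244 between 1 and 2, 0.806 for the 65 between 2 and 3 and 0.806 for the 31 above 3. Lowered genes were at 0.804 (676 genes under 0.5), 0.722 (667 genes between 0.5 and 1) and 0.693 (67 genes between 1 and 2).

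**Figure D2:**
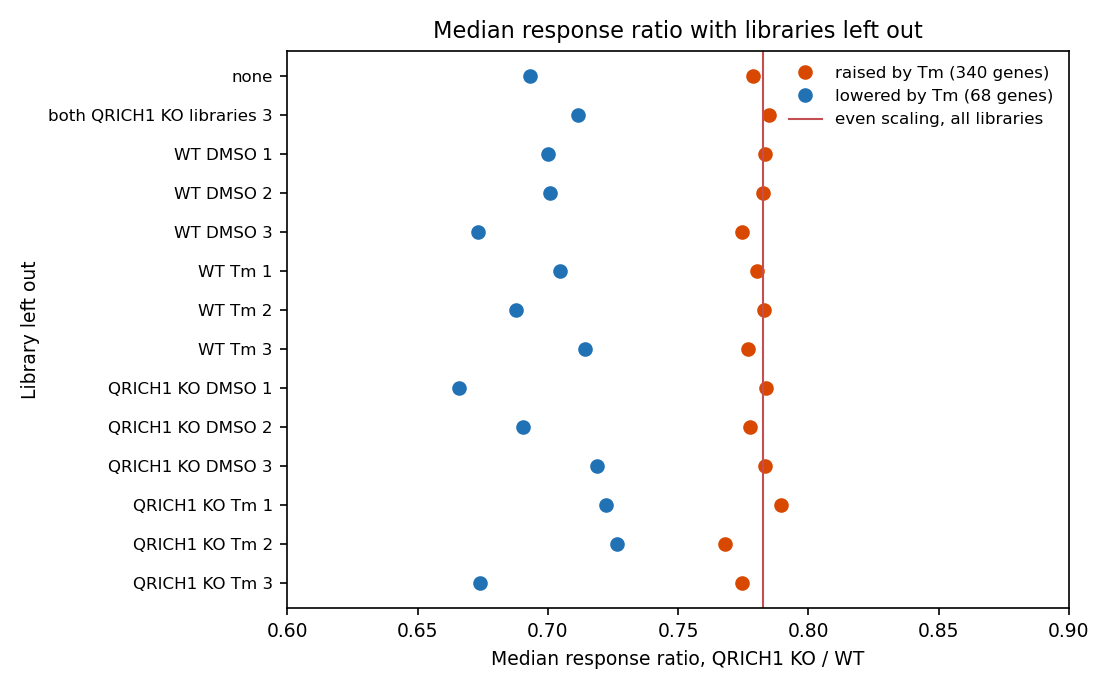
Median ratio of the QRICH1 KO to the WT response (horizontal axis) for the 340 raised (orange) and 68 lowered (blue) genes, with no library left out (top), without both QRICH1 KO libraries 3, and without each single library (rows). The red line is the even scaling of 0.78, and in every row the lowered genes lie to the left of the raised ones.

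Where the smaller response came from differed between genes. Over the 340 raised genes, the median difference between QRICH1 KO and WT was 0.04 (log2) under DMSO and -0.34 under Tm, and over the 68 lowered genes it was 0.04 and 0.36. Of the 97 genes with a shared response of at least 2 in size, 96 of them raised, 96 were lower in QRICH1 KO than in WT under Tm and 62 were higher under DMSO. Over all 11323 genes, 5493 were lower under Tm and 5725 higher under DMSO. QRICH1 KO differed from WT in 11 of 11323 genes (0.0971%) under DMSO and in 132 (1.17%) under Tm by the edgeR test. The DMSO and Tm contrasts use different libraries, but both enter the interaction.

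In threshold terms, 1414 genes were called in both genotypes, 1276 in WT only and 354 in QRICH1 KO only. A call in 1 genotype does not show a difference: 265 of the 1276 and 51 of the 354 had an interaction p under 0.05 unadjusted. No gene was called in opposite directions in the 2 genotypes.

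A log2 response understates how much transcript is missing. HSPA5 encodes BiP, the main ER chaperone of the HSP70 family. It was at 1200, 968 and 1074 CPM in WT DMSO and 1139, 1185 and 1055 in QRICH1 KO DMSO, and at 26394, 30882 and 26275 CPM in WT Tm against 16164, 17930 and 15296 in QRICH1 KO Tm. The DMSO groups overlapped and the Tm groups did not. The response was 25.8-fold in WT and 14.6-fold in QRICH1 KO, a ratio of 0.83 (SE 0.039) on the log2 scale, whereas the gain in CPM in QRICH1 KO was 0.57 of the gain in WT. Over all genes with a called shared response of at least 1 in size, the median ratio was 0.76 on the log2 scale and 0.70 as a difference in CPM.

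The members of the stress panel spread over a narrow range around the line. Under the XBP1 and ATF6 arms, SDF2L1, which works with the BiP co-chaperone DNAJB11, had a ratio of 0.77 (SE 0.041), HSP90B1 0.78 (SE 0.039), DNAJB9, a BiP co-chaperone that restrains IRE1, 0.88 (SE 0.043), and HERPUD1, a scaffold of ER-associated degradation, 0.91 (SE 0.034). XBP1 itself, whose mRNA is spliced by IRE1, responded 2.15-fold in WT and 1.83-fold in QRICH1 KO, with a ratio of 0.79 (SE 0.175). Under the PERK arm, ATF4 was at 0.76 (SE 0.092), ATF3 at 0.74 (SE 0.169), CHAC1, which degrades glutathione, at 0.75 (SE 0.076), TRIB3, a pseudokinase that binds ATF4, at 0.81 (SE 0.049), DDIT3 at 0.86 (SE 0.053) and PPP1R15A, the phosphatase subunit that ends the translation block, at 0.87 (SE 0.086). All 12 panel genes had a ratio under 1 and none had a called residual. The arms were not compared by a test, and HERPUD1 also carries a match to the element bound by ATF4 (below).

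**Figure D3:**
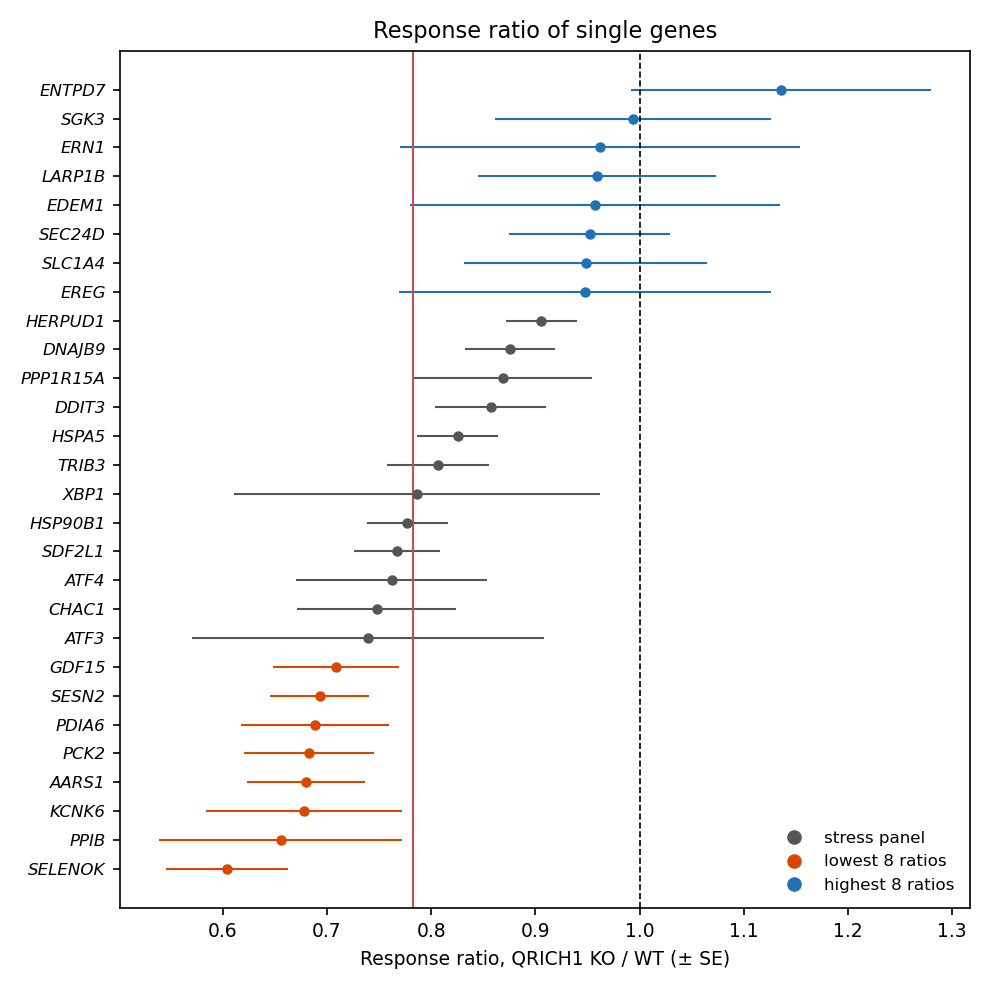
Ratio of the QRICH1 KO to the WT log2 response (horizontal axis, ± SE) for the stress panel (grey) and for the 8 lowest (orange) and 8 highest (blue) ratios among the 97 genes with a shared response of at least 2 in size and 10 CPM. The red line is the even scaling of 0.78 and the dashed line an equal response. Only ENTPD7 lies beyond 1, and its SE bar reaches below 1.

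Among the 97 strongly responding genes the ratio ran from 0.604 to 1.14, with a median of 0.81. At the lower end, after SELENOK, came PPIB, an ER prolyl isomerase, at 0.66, the potassium channel gene KCNK6 at 0.68, the alanyl-tRNA synthetase AARS1 at 0.68, PCK2, the mitochondrial phosphoenolpyruvate carboxykinase, at 0.68, the disulfide isomerase PDIA6 at 0.69, SESN2 at 0.69 and the secreted stress factor GDF15 at 0.71. At the upper end were EREG, an EGF receptor ligand, at 0.95, the neutral amino acid transporter SLC1A4 at 0.95 and the coat protein gene SEC24D at 0.95. EDEM1, which directs glycoproteins to degradation, was at 0.96, LARP1B at 0.96 and the sensor ERN1 at 0.96. The kinase gene SGK3 was at 0.99 and ENTPD7, a nucleotidase, at 1.14. The genes of both ends were picked as extremes of the ratio, so their distance from the line is a description.

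In the direction of losing response beyond the even scaling, SELENOK had the lowest ratio of the 97 strongly responding genes. It encodes an ER selenoprotein tied to the degradation machinery. It was at 7.62, 10.5 and 13.1 CPM in WT DMSO and 14.9, 17.2 and 15.5 in QRICH1 KO DMSO. Under Tm it was at 77.8, 81.8 and 81.0 CPM in WT and at 56.3, 53.5 and 51.3 in QRICH1 KO. The genotypes overlapped in neither treatment, and the response narrowed from both ends. An even scaling from its QRICH1 KO DMSO level would have given 77.2 CPM under Tm, against the measured 53.7 ± 2.51 (SD, n = 3). The residual was -0.52 (SE 0.183, unadjusted p = 0.0105, edgeR adjusted p = 0.981). CCNO, an atypical cyclin, had a ratio of 0.47 (SE 0.102) and a residual of -0.56.

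Several lowered genes with smaller responses had lower ratios than SELENOK. SOSTDC1 was at 30.2, 32.1 and 34.7 CPM in the WT libraries without Tm and 7.26, 9.27 and 9.43 with it, and at 25.7, 29 and 33.3 CPM in the QRICH1 KO libraries without Tm and 17.1, 12.3 and 16 with it, a ratio of 0.50 (SE 0.094). LGR5, the R-spondin receptor of intestinal stem cells, was at 19.3, 20.6 and 16 CPM in WT DMSO against 4.29, 5.85 and 5.93 in WT Tm, and at 21.1, 21.6 and 19.9 CPM in QRICH1 KO DMSO against 9.92, 9.72 and 13.3 in QRICH1 KO Tm. Its ratio was 0.51 (SE 0.11) and its residual 0.50 (unadjusted p = 0.0439). CLDN2 had a ratio of 0.46 (SE 0.109) and GLUL 0.49 (SE 0.089). For all 4 genes, grouped here for their low ratios, every QRICH1 KO Tm library was above every WT Tm library, which is a description. Under DMSO the genotypes overlapped for 3 of them, and for CLDN2 the QRICH1 KO libraries, at 33.3, 33.6 and 34.5 CPM, were above the WT libraries, at 27.6, 30.3 and 25.4. In the whole list of WNT targets and stem cell genes, 1 of 13 tested members was called higher and 6 lower. Over all genes tested these shares were 16.8% and 16.5%. The median ratio of the 7 called members was 0.80, with 4 above and 3 below the line. Among all 3776 genes with a called shared response, 1795 lay above and 1981 below. Of the 13, 3 (23.1%) had a residual p under 0.05 unadjusted, beside 4.2% of all genes.

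In the direction of keeping the response, HERPUD1 had the smallest p of any strongly responding gene. It was at 61.6, 51.0 and 60.1 CPM in WT DMSO and 53.7, 53.5 and 53.7 in QRICH1 KO DMSO. Under Tm it was at 1701, 1940 and 1828 CPM in WT and at 1254, 1324 and 1105 in QRICH1 KO, so the QRICH1 KO libraries were still below all WT libraries. The even scaling would have given 802 CPM, against the measured 1227 ± 112 (SD, n = 3). The residual was 0.61 (SE 0.139, unadjusted p = 0.000345, edgeR adjusted p = 0.781). AGR2, a disulfide isomerase needed for mucin folding, rose 43.9-fold in WT and 26.3-fold in QRICH1 KO. Its level went from 61.0, 60.4 and 79.6 CPM in WT DMSO to 2903, 3095 and 2843 in WT Tm, and from 76.6, 65.8 and 58.0 in QRICH1 KO DMSO to 1680, 1963 and 1622 in QRICH1 KO Tm. Its residual was 0.44 (SE 0.167) with a ratio of 0.86, and without both QRICH1 KO libraries 3 the residual turned to -0.39 with the slope fitted anew and was 0.41 with the slope kept. SEC24D had a residual of 0.67 (SE 0.267) and DNAJB9 of 0.38 (SE 0.157), which without those libraries went to -0.003 and -0.11 with the slope fitted anew and to 0.58 and 0.49 with the slope kept. The mitochondrial outer membrane gene ARMCX3 had a ratio of 0.92.

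The residual of HERPUD1 was called in some settings. With edgeR and no filter on low counts it was 1 of 12 residuals called (adjusted p = 0.0288), and it was called in 4 of 12 settings with a library left out (without WT DMSO library 1 or 3, or WT Tm library 1 or 2, adjusted p of 0.0304, 0.0286, 0.0219 and 0.00808). In those settings the slope fell as well. With the slope kept at 0.78, an alternative chosen after seeing the data, no gene was called in any of the 12 settings, and the HERPUD1 residual lay between 0.557 and 0.683. Without both QRICH1 KO libraries 3 it was 0.689 with the slope kept and -0.04 with the slope fitted anew, which was then 0.93.

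In the direction of gaining response, ENTPD7 was the only one of the 97 genes of at least 10 CPM and a shared response of at least 2 that had a larger fitted response in QRICH1 KO. It was at 10.2, 14.7 and 10.6 CPM in WT DMSO and 7.52, 9.57 and 10.8 in QRICH1 KO DMSO, and at 47.1, 38.7 and 39.8 CPM in WT Tm and 37.4, 35.7 and 42.5 in QRICH1 KO Tm. The genotypes overlapped in both treatments, and the fitted responses were 3.5-fold in WT and 4.15-fold in QRICH1 KO. The residual was 0.64 (SE 0.214, unadjusted p = 0.00811), while the plain interaction was 0.25 (SE 0.239). The genes that followed ENTPD7 in this direction had smaller responses. LZTFL1, a regulator of ciliary transport, had a ratio of 1.2, NDUFA1, a subunit of respiratory complex I, of 1.15, TVP23B of 1.09 and ZNF75D of 1.21, and none had a residual p under 0.05 unadjusted. TVP23B has a close paralog, TVP23C, and reads could be split between them.

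With edgeR and no filter on low counts, 12 residuals were called, and the 11 beside HERPUD1 are named here after their values were seen. Those of PEAR1, FAR1, MT-ATP8, MT-ND6 and RPS23 were in the gaining class, those of AFAP1L2 and PHF6 in the losing class, and CLTC, TBCEL, TENM3 and TUBA1A had no called shared response. The classes are labels of the rule. In that fit the WT and QRICH1 KO responses were -0.069 and 0.70 for FAR1, -0.047 and 1.08 for MT-ATP8, and -0.047 and 0.71 for MT-ND6. They were -1.07 and 0.11 for PHF6. In these genes and AFAP1L2 the fitted sign differed between genotypes, so no common response was enlarged or reduced. PEAR1, a receptor of the EGF-repeat family, had the smallest adjusted p (0.00212) and was also called without WT DMSO library 1 (edgeR adjusted p = 0.0304). It was at 0.501 CPM in WT DMSO, 9.58 in WT Tm, 0.0605 in QRICH1 KO DMSO and 8.11 in QRICH1 KO Tm as group means, and QRICH1 KO DMSO held 3 counts in all, so that its fitted response there depends on the prior count. FAR1, an enzyme of ether lipid synthesis, had a residual of 0.76 with an SE of 0.541 in the filtered fit.

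**Figure D4:**
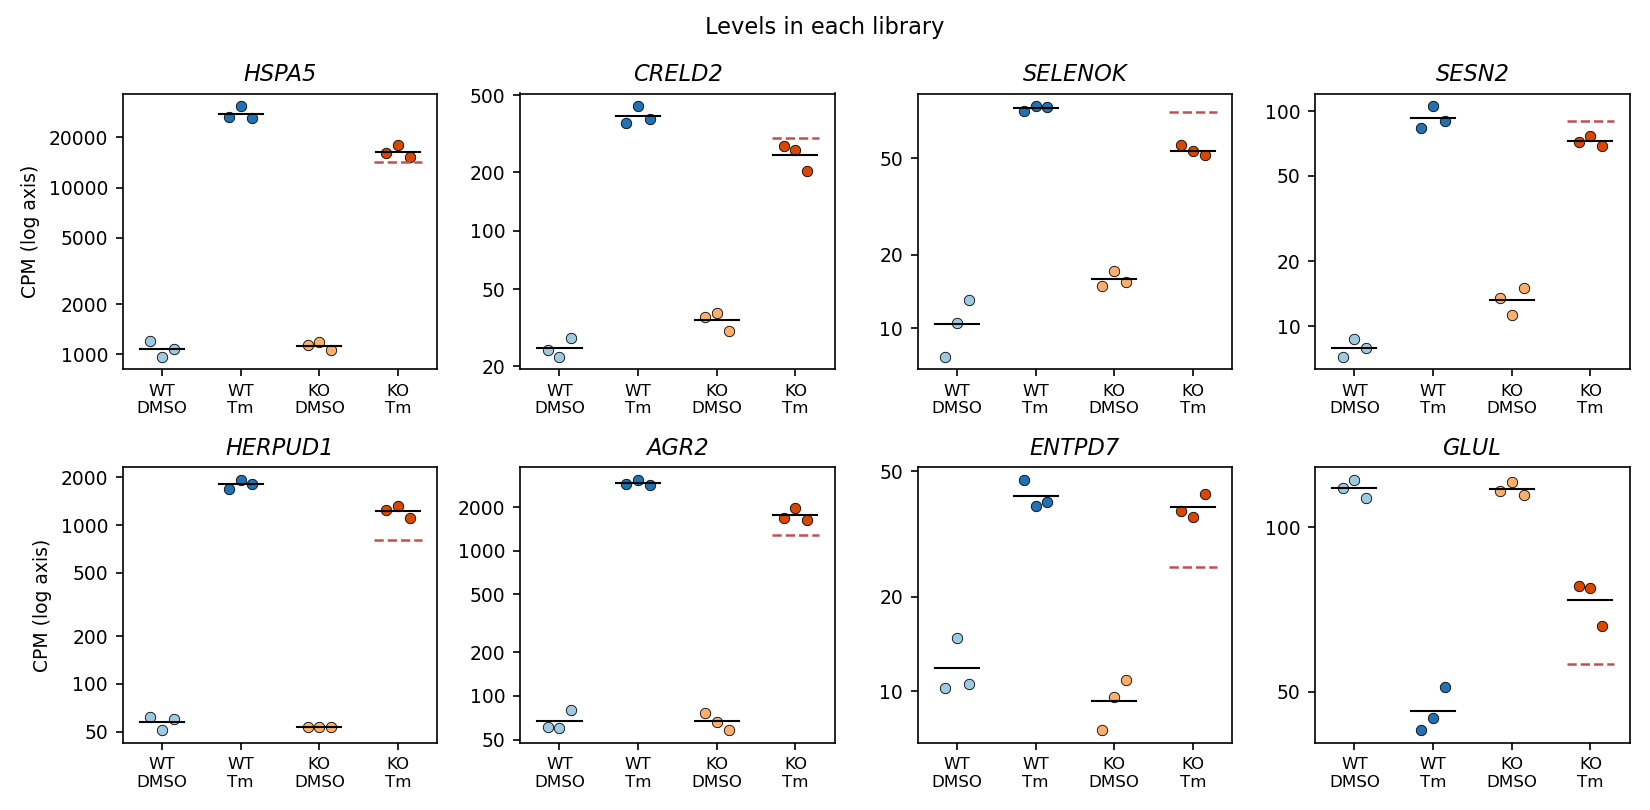
CPM (vertical log axis, one scale per panel) of 8 genes in each of the 12 libraries, with WT on the left and QRICH1 KO on the right of each panel, DMSO before Tm. Points are libraries, black bars group means, and the dashed red bar the QRICH1 KO Tm level that the even scaling gives from the QRICH1 KO DMSO mean. SELENOK lies below its bar (53.7 against 77.2 CPM) and HERPUD1 above it (1227 against 802 CPM).

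The promoters of 4 of these genes, which lie at different places around the line, are shown. Each line gives the 200 bases before the RefSeq start of the gene, 5′ to 3′ on the gene's strand (GRCh38.p14). Capitals mark matches to ERSE, the ER stress element bound by ATF6 and XBP1 with NF-Y (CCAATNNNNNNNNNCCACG), to ERSE-II (ATTGGNCCACG) and to CARE, the element bound by ATF4 with C/EBP proteins (TGATGNAA), on either strand.
HSPA5 (chr9:125241344-125241543, minus strand): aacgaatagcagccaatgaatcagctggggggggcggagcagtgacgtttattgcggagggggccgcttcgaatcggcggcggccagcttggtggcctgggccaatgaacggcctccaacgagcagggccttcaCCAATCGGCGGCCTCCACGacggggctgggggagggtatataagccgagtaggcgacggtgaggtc
HERPUD1 (chr16:56931942-56932141, plus strand): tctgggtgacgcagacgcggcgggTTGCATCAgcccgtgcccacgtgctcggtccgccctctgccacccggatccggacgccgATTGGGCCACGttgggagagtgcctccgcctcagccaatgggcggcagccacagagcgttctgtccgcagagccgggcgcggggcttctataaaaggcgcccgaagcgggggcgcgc
CRELD2 (chr22:49918434-49918633, plus strand): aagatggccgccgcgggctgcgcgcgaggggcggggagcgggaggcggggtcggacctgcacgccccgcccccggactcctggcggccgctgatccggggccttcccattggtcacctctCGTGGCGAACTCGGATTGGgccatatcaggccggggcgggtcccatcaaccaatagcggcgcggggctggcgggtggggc
SELENOK (chr3:53891860-53892059, minus strand): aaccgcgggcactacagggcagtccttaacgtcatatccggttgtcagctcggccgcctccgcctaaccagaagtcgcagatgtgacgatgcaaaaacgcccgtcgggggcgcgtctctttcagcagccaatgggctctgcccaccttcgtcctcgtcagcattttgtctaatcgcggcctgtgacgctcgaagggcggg

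In HSPA5, ratio 0.83, an ERSE lies 66 to 48 bases before the start. In CRELD2, ratio 0.71, an ERSE on the opposite strand lies 80 to 62 bases before it. HERPUD1, ratio 0.91, has an ERSE-II 117 to 107 bases before the start and a CARE on the opposite strand 176 to 169 bases before it. In SELENOK, ratio 0.60, none of these letters were found, which says nothing about which factors bind there.

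Over all tested genes, 9258 of 11323 had a RefSeq window, taken from 250 bases before to 50 bases after the start. ERSE was found in 0.162% of them, ERSE-II in 0.14%, CARE in 2.72%, and the core of the XBP1 element UPRE (ACGTGG, which can overlap the others) in 15.9%. Of the 96 strongly raised genes, 84 had a window, and the shares were 7.14%, 3.57%, 11.9% and 29.8%. Split by the line, ERSE was found in 2 of 51 genes above and 4 of 33 below, CARE in 4 of 51 above and 6 of 33 below, and the UPRE core in 19 of 51 above and 6 of 33 below. The median ratio of the strongly raised genes was 0.77 with an ERSE (6 genes) and 0.81 without (78), 0.77 with a CARE (10) and 0.81 without (74), and 0.82 with a UPRE core (25) and 0.80 without (59). These are descriptions of letters in a window and were not tested.

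Among ER chaperones and disulfide isomerases 31 of 37 tested members had a called shared response, all higher with Tm. Of these 31, 30 had the smaller response in QRICH1 KO. Over all genes tested, 16.8% were called higher and 16.5% lower, the shares to set beside the counts of this and the following lists. Of the 31, 21 lay below the even scaling and 10 above, beside 1981 below and 1795 above among all 3776 genes with a called shared response. The median ratio of the 31 was 0.75, beside 0.763 over those 3776 genes. The interaction had an unadjusted p under 0.05 in 19 of 37 members, beside 6.84% of all genes, and the residual in 2 of 37, beside 4.2%. With single libraries left out the median ratio ran from 0.741 to 0.768.

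In ER-associated degradation 21 of 33 members were called higher and 2 lower, with 11 above and 12 below the line and a median ratio of 0.76. Examples ran from SELENOK at 0.60 and SELENOS at 0.72 over the ubiquitin ligase SYVN1 at 0.76 and its partner SEL1L at 0.85 to HERPUD1 at 0.91. In ER translocation and targeting 29 of 35 were called higher, with 13 above and 16 below the line and a median of 0.77. There the signal peptidase subunit SEC11C was at 0.76, the channel subunit SEC61G at 0.77, the receptor subunit SRPRB at 0.81 and SSR1 at 0.86. In N-glycan assembly and transfer, the pathway that Tm blocks, 30 of 46 were called higher and 3 lower, with 15 above and 18 below the line and a median of 0.77. The hexosamine pathway enzymes GFPT1 and PGM3 were at 0.82 and 0.86, and the oligosaccharyltransferase subunits OSTC and MAGT1 at 0.82 and 0.83. In ER-Golgi transport 44 of 52 were called higher and 1 lower, with a median of 0.81. There 27 of the 45 lay above the line, beside 1795 of all 3776 genes with a called shared response. Residuals under an unadjusted p of 0.05 numbered 2 of 33, 0 of 35, 0 of 46 and 2 of 52 in these lists.

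Among ATF4 and CHOP targets 31 of 35 were called higher, with 15 above and 16 below the line and a median ratio of 0.77. DDIT4, an mTORC1 inhibitor, was at 0.79 and NIBAN1 at 0.77. DDIT4 was at 2.45, 2.80 and 2.16 CPM in WT DMSO and 4.75, 4.64 and 4.0 in QRICH1 KO DMSO, so all 3 QRICH1 KO libraries were higher before Tm, and at 63.9, 78.7 and 69.3 against 71.7, 66.0 and 52.4 CPM under Tm, where they overlapped. Its interaction of -1.0 (SE 0.238) thus came mostly from the DMSO side. In this list the median difference between QRICH1 KO and WT was 0.13 under DMSO and -0.26 under Tm, while for ER chaperones the medians were 0.11 and -0.55. Of the 35 ATF4 and CHOP targets, 26 were higher in QRICH1 KO DMSO, beside 5725 of all 11323 genes. Amino acid transporters had 10 called higher and 1 lower of 16, with a median ratio of 0.79, where SLC3A2, the heavy chain of the cystine and large neutral amino acid transporters, was at 0.73 and its partner SLC7A11 at 0.79. Aminoacyl-tRNA synthetases had 13 higher and 1 lower of 23 and a median of 0.72. Of the 14, 11 lay below the line, beside 1981 of all 3776 genes with a called shared response. AARS1 at 0.68 and SARS1 at 0.73 were among the 11. None of the 23 synthetases had a residual p under 0.05.

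Sensors and transcription factors of the response had 14 of 23 called higher and a median ratio of 0.77, with 7 on each side of the line. The sensors ERN1 and EIF2AK3 had ratios of 0.96 (SE 0.192) and 0.97 (SE 0.241), at 10.9 and 4.61 CPM on average, which these errors do not separate from 0.78.

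**Figure D5:**
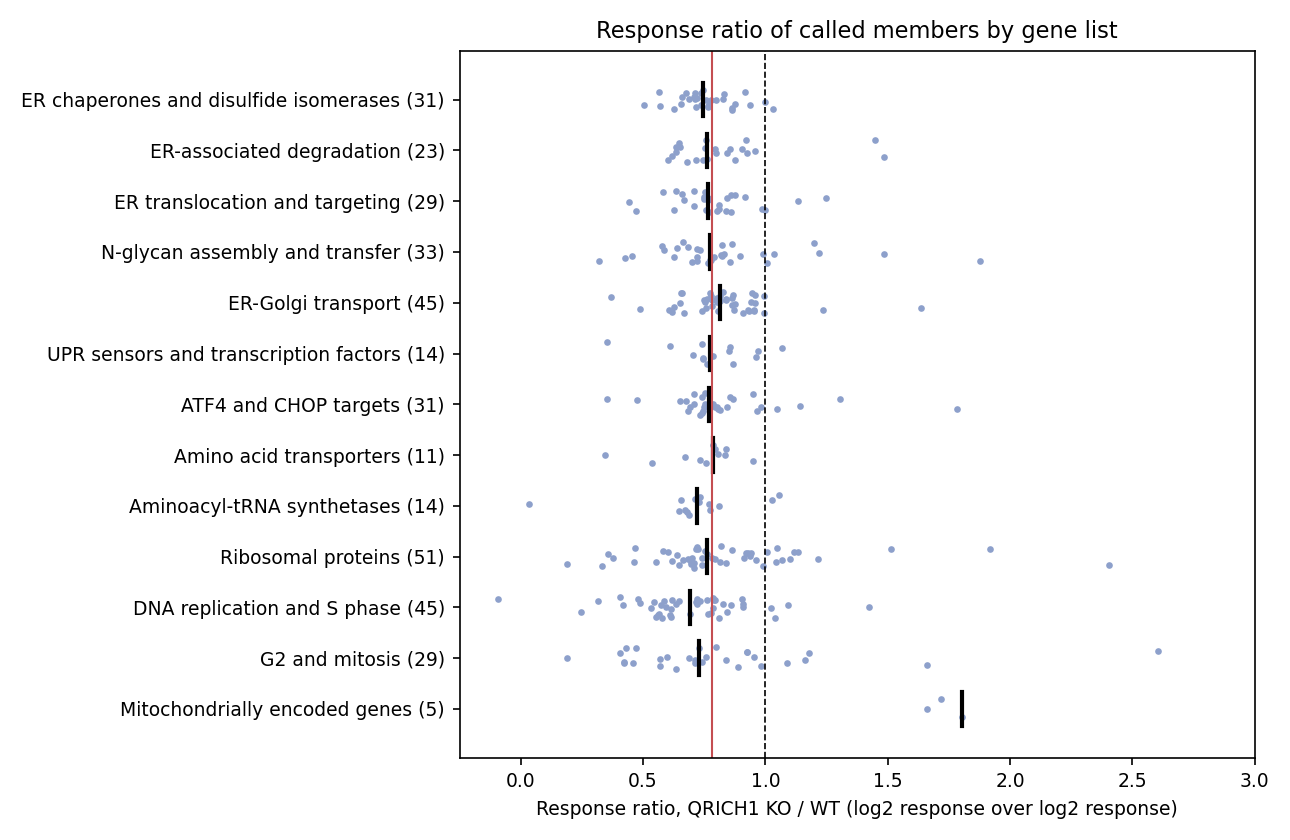
Ratio of the QRICH1 KO to the WT log2 response (horizontal axis) for the members of 13 gene lists that had a called shared response (points, number in brackets), with the median of each list as a black bar. The red line is the even scaling of 0.78 and the dashed line an equal response, and 3 members lie beyond the axis. The list medians lie between 0.69 and 0.81 except for mitochondrially encoded genes at 1.80, whose median WT response over all 13 members was only 0.04.

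Among genes that Tm lowers, DNA replication and S phase had 44 of 50 members called lower and 1 higher, with a median ratio of 0.69. Of the 45, 30 lay below the line, beside 1981 of all 3776 genes with a called shared response. Among the 68 lowered genes described above, 45 lay below it, with a median ratio that was also 0.69. Of all 1869 genes called lower, 849 lay above it, with a median ratio of 0.74. The replication factor GINS2 was at 0.72, the histone code reader UHRF1 at 0.83 and FAM111B at 0.76. The interaction had an unadjusted p under 0.05 in 18 of 50 members (36%, beside 6.84% of all genes), and the residual in 3 (6%, beside 4.2%). G2 and mitosis had 26 lower and 3 higher of 40, with a median of 0.73, where the proliferation marker MKI67 was at 0.80.

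Ribosomal protein genes had 51 of 74 members called higher, with a median ratio of 0.76. Their responses were small, with a median of 0.43 in WT and 0.32 in QRICH1 KO, so single ratios were imprecise. The residual had an unadjusted p under 0.05 in 3 of 74 members (4.05%), beside 4.2% of all genes. RPS23, of the small subunit, was at 246, 241 and 355 CPM in the WT libraries without Tm and 384, 380 and 359 with it, and at 278, 226 and 245 CPM in the QRICH1 KO libraries without Tm and 482, 511 and 503 with it. Its residual was 0.67 (SE 0.168, unadjusted p = 0.000832, edgeR adjusted p = 0.981), and it was called with no filter on low counts (adjusted p = 0.0323), while RPS13 had a ratio of 0.94 and RPS29 of 0.72. Ribosomal protein genes have many processed copies, and how reads shared with them were counted is not given in the sources used here. The median ratio of this list ran from 0.624 without QRICH1 KO DMSO library 3 to 1.08 without WT Tm library 2.

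The 13 mitochondrially encoded genes had a median response of 0.04 in WT and 0.51 in QRICH1 KO. The 5 with a called shared response had ratios of 1.66 to 14.8, with a median of 1.80. The QRICH1 KO response enters that call and the WT responses were small. Ratios above 1 are thus partly set by the choice of these 5, and their median is not comparable with those of the other lists. The residual had an unadjusted p under 0.05 in 7 of 13, beside 4.2% of all genes. edgeR called 0 of the 13 with the filter on low counts and 2 without it, MT-ATP8 (adjusted p = 0.00409) and MT-ND6 (adjusted p = 0.0381). MT-ATP8, a subunit of ATP synthase, was at 27.6, 17.7 and 12.7 CPM in the WT libraries without Tm and 16.1, 21.2 and 17.6 with it, and at 16.7, 12.7 and 15 CPM in the QRICH1 KO libraries without Tm and 27.4, 25.4 and 41.3 with it. Its residual was 1.13 (SE 0.301, unadjusted p = 0.0015). MT-CO1, a subunit of cytochrome c oxidase, responded 1.14-fold in WT and 1.5-fold in QRICH1 KO, and its groups overlapped between genotypes under both treatments.

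All 13 mitochondrial genes had a fitted level below WT in QRICH1 KO DMSO, with a median difference of -0.26, and 10 were above WT under Tm, with a median of 0.14. These transcripts share a source, the mitochondrial genome and its content in a library. They took 2.77% to 3.69% of counts in WT DMSO, 2.59% to 3.44% in WT Tm, 2.06% to 3.10% in QRICH1 KO DMSO and 2.77% to 3.74% in QRICH1 KO Tm, ranges that overlap between all 4 groups. The median residual of the list lay between 0.307 and 0.532 with single libraries left out and was 0.52 without both QRICH1 KO libraries 3, and the part that library composition has in it was not tested.

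Interferon-stimulated genes had 7 members called higher and 2 lower of 31, beside 16.8% and 16.5% of all genes. Over these 9 members the median ratio was 0.58, and 7 lay below the line, beside 1981 of all 3776 genes with a called shared response. ISG20 had a response of 2.71 in WT and 1.57 in QRICH1 KO at 5 CPM on average. The list was lower in QRICH1 KO than in WT under both treatments, with a median difference of -0.37 under DMSO and -0.56 under Tm, and its median response was -0.02 in WT and -0.01 in QRICH1 KO.

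Genes that bear on the drug itself were read from a list of 6, of which 5 were tested. MFSD2A, the transporter through which tunicamycin enters cells, was at 12, 5.18 and 10.7 CPM in the WT libraries without Tm and 17.6, 19.8 and 17.9 with it, and at 6.78, 7.83 and 6.01 CPM in the QRICH1 KO libraries without Tm and 12.5, 11.7 and 12.7 with it, so every QRICH1 KO Tm library was below every WT Tm library. The difference between genotypes was -0.40 under DMSO and -0.58 under Tm (edgeR adjusted p = 0.625 and 0.274). The drug's target DPAGT1 had a difference of 0.08 under DMSO and -0.19 under Tm, the exporter ABCG2 of 0.39 and 0.32 and the exporter ABCC1 of 0.22 and 0.20. None of these was called, and the part of drug uptake or target level in the smaller response was not tested.

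In 24 of 11323 genes every Tm library lay on one side of every DMSO library in WT and on the other side in QRICH1 KO. The same direction in both was found in 2308 genes. With 3 libraries a group such separation also arises by chance, and the number to be had by chance was not computed. Of the 24, 15 had at least 10 CPM, and none was called by the interaction test.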

How the data were processed

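The authors deposited whole-number read counts per gene for the 12 libraries. Libraries were made by a modified Smart-seq2 method, which marks neither strand nor molecules, per the labels' protocols. Trimmomatic, STAR, DESeq2 and hg38 are named, per the submitters' processing notes. No version, counter or strand setting was stated. GENCODE 29 identifiers matched 19972 of 20015 genes. The members and gene lists were chosen with earlier results of these data known.

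Genes passing the edgeR filter (minimum count 10) were scaled by TMM and fitted with 4 group means by edgeR 4.0.16 quasi-likelihood (R 4.3.3). The Benjamini-Hochberg adjustment covered 11323 genes, with a threshold of 0.05. Alternatives were DESeq2 1.42.0, limma 3.58.1 voom, other filters, scaling factors and slopes, a replicate block, and libraries left out. The scripts were tested on simulated data. A total of 3 counts corresponds to 0.168 to 0.438 CPM, for counting error only. P-values measure the spread between these libraries.

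Named genes were QRICH1, a panel of 12 stress genes, up to 10 called genes of each class or, with under 5 called, the 5 with the smallest unadjusted p among genes of at least 10 CPM and a shared response of at least 1, the 8 highest and 8 lowest ratios among strongly responding genes, up to 4 members of each list with the largest shared response, and the genes of tunicamycin uptake, target and efflux. KRT8, LYZ, the 4 genes of the closing section and the genes said so in the text were named after their values were seen.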

Additional observations from a re-analysis of the deposited data

Results flagged for a closer look

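In 24 of 11323 genes the libraries of both genotypes were fully separated by treatment and in opposite directions, a number not set against what chance gives. The 4 with the smallest p, chosen after the values were seen, are given here, and none passed the edgeR interaction test after adjustment.

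TSC22D2, of the TSC22 domain family, was at 45.6, 39.2 and 38.9 CPM in WT DMSO and 49.5, 61.4 and 59.3 in QRICH1 KO DMSO. Under Tm it was at 55.8, 45.6 and 53.1 CPM in WT, the lowest of which equals the highest WT DMSO value to 3 digits, and at 46.8, 41.2 and 42.0 in QRICH1 KO. Its fitted response was 0.324 in WT and -0.386 in QRICH1 KO, a difference of -0.71 (unadjusted p = 0.000788, edgeR adjusted p = 0.266). LRP6, a WNT co-receptor, had a response of -0.463 in WT and 0.214 in QRICH1 KO, a difference of 0.677 (edgeR, unadjusted p = 0.00158). TRMT61A, a tRNA methyltransferase subunit, had 0.46 and -0.182, a difference of -0.642 (edgeR, unadjusted p = 0.00181). CHST12, a chondroitin sulfotransferase, had 0.271 and -0.394, a difference of -0.665 (edgeR, unadjusted p = 0.00343). For TSC22D2, TRMT61A and CHST12 the mean of the QRICH1 KO libraries was above that of the WT libraries under DMSO and below it under Tm, and for LRP6 the reverse.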

How the results depend on the processing

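The interaction was called for 0 genes by edgeR, for 35 by DESeq2 and for 44 with no filter on low counts, and for 0 to 4 with single libraries left out, where the 4 came without WT DMSO library 3. The scaled interaction was called for 0 genes, for 12 with no filter and for 0 to 2 with single libraries left out. With no filter, 2 genes were called as losing, 1 as keeping and 5 as gaining response, among them genes whose fitted sign differed between genotypes. With single libraries left out 0 to 1 were called as keeping and 0 to 1 as gaining. The slope of 0.783 ran from 0.697 to 0.874 with single libraries left out, was 0.929 without both QRICH1 KO libraries 3, and was 0.697 as a median ratio of differences in CPM. The median ratio, re-chosen in each setting from genes of any CPM, was 0.782 for raised genes (0.760 to 0.808 with single libraries left out, 0.813 without both QRICH1 KO libraries 3) and 0.667 for lowered genes (0.597 to 0.763, and 0.841). The cause of these changes was not tested. These median ratios and the scaled test with its slope kept were alternatives chosen after seeing the data.

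Of 5758 gene values under the alternatives, 44 came past the threshold, 5 reversed and 5709 kept their side of the threshold, among them values whose sign turned while within its SE (488 in all). Those 5 are residuals: HSPA5 at -0.477 without both QRICH1 KO libraries 3 and -0.274 without QRICH1 KO DMSO library 3, with single libraries left out between that value and 0.632, and DDIT3 at -0.422, AGR2 at -0.387 and WIPI1 at -0.319 without both. Each has the higher slope of that setting as its reference. With the replicate number as a block the slope was 0.784 and both tests called 0 genes, with 818 and 503 genes under 0.05 unadjusted. Same-numbered libraries correlated at -0.186 to 0.265 in their deviations, over 0.1 in 6 of 18 pairs, and 5 of 12 libraries correlated best with their own number. The highest were QRICH1 KO libraries 3, at 0.265 between DMSO and Tm, and QRICH1 KO libraries 1, at 0.213. The labels name no shared source for a number, so no pairing was assumed. With a median residual SE of 0.18, residuals several times that size were not called after adjustment over all genes tested.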
